A study of Mus musculus with 3 samples.

Results

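Absorption of bile acids in the small intestine was followed through 7 genes of the 13891 in the table: Fabp6, Slc10a2, Slc51a, Slc51b, Nr1h4, Fgf15 and Nr0b2. The genes were chosen by name for their known role, and their values were read in enterocyte classes that were named from other genes. Bile acids are made in the liver, help to absorb fat in the upper small intestine and are taken back up in the ileum, its last part. Slc10a2 is the sodium-dependent transporter of the ileal brush border, Fabp6 binds bile acids inside the cell, and Slc51a and Slc51b form the exporter at the basolateral side. Bile acids activate the nuclear receptor FXR, encoded by Nr1h4, whose target genes include Fabp6, both exporter subunits, the hormone gene Fgf15 and the repressor gene Nr0b2 (SHP).

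The cells came from the small intestine of male ICR mice, an outbred stock, that were 3 weeks old at the start. AOS 0 mice received water as vehicle. B + A 0 mice received 1 injection of busulfan, an alkylating drug, at 40 mg/kg and then vehicle, and B + A 10 mice received the same injection and then alginate oligosaccharides (AOS) at 10 mg/kg by gavage, daily for 2 weeks. Cells of 6 mice were pooled into 1 droplet library per group, so no spread between animals was measured, no test between groups was possible, and every interval given here covers counting error only. The source field of 2 libraries disagreed with their titles, and the groups were taken from the titles.

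The table held 4106 cells for AOS 0, 3195 for B + A 0 and 5352 for B + A 10, with a median of 7371, 6407 and 3505 unique molecular identifiers (UMIs, counted RNA molecules) per cell. Between 17 and 34 cell barcodes were shared by any pair of libraries. Clusters were found without the 7 genes, and 5 enterocyte classes were named from marker lists. The ileal-like class was 1 cluster of 916 cells, with the listed ileal markers Tmigd1, Slc5a8, Mgat4c and Slc34a2 among its 10 leading genes. The proximal-like class had 2029 cells in 3 clusters and the early-like class 1147 cells in 1. Mgat4c, an ileal marker, was also among the leading genes of the early-like cluster. A level is the UMIs of a gene in a class per 10000 UMIs of all genes in those cells. In a whole library of pooled tissue, fewer ileal cells and less RNA per cell cannot be told apart, so levels are given within classes.

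In the GRCm38 annotation, Fabp6 lies at chr11:43596049-43601540 and Slc10a2 at chr8:5083219-5105351, both on the minus strand. Slc51a (chr16:32474504-32487879) and Slc51b (chr9:65412714-65422955) are on different chromosomes although their products work as a pair. Nr1h4 lies at chr10:89454234-89533585, Fgf15 at chr7:144896531-144900953 and Nr0b2 at chr4:133553376-133556536. Promoter sequence of Fabp6 and Slc10a2 is shown because these were the members with the largest ileal to proximal ratios. Both stretches are from RefSeq (GRCm38.p6), written 5′ to 3′ on the minus strand, and lie before the start of the gene. The Fabp6 stretch is chr11:43601563-43601812 and the Slc10a2 stretch is chr8:5105388-5105537.
Fabp6: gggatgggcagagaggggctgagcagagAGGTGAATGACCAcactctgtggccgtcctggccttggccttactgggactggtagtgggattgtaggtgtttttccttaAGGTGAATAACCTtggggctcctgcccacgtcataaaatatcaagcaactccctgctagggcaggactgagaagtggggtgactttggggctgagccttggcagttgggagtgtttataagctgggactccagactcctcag
Slc10a2: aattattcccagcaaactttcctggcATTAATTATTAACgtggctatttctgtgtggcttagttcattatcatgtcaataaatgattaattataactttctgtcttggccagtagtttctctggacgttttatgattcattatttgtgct
Capitals mark matches to 2 palindromes, searched in the 250 bases before each start with up to 2 mismatches. The motif AGGTCANTGACCT, the inverted repeat spaced by 1 base that FXR is known to bind, had 2 matches in Fabp6, each with 2 mismatches, and 268 of 27025 promoters (0.992%) held a match. The motif GTTAATNATTAAC, the HNF1 palindrome, matched in Slc10a2 with 1 mismatch and in Nr1h4 with 2, and 1.25% of all promoters held a match. The Nr1h4 window, chr10:89506659-89506908, lies before a RefSeq start that is inside the gene span given above. Among the 6 members with a promoter in the RefSeq table, Slc51a, Slc51b and Nr0b2 had neither palindrome in this window. A match is a run of letters and was not tested as a binding site.

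The uptake transporter and the intracellular binder had the steepest contrast between ileal-like and proximal-like cells. Fabp6 stood at 459.9, 449 and 478 UMIs per 10000 in ileal-like cells of AOS 0, B + A 0 then B + A 10, against 11.3, 15.2 and 6.78 in proximal-like cells. The lowest ileal-like value was therefore above the highest proximal-like value by a wide margin in every library. With libraries together the ratio was 42.3-fold (log2 ratio 5.40, 95% interval 5.37 to 5.43), and within libraries it ranged from 29.6-fold in B + A 0 to 70.4-fold in B + A 10. Slc10a2 stood at 4.995, 3.99 and 3.67 UMIs per 10000 in ileal-like cells of the same libraries and at 0.188, 0.164 and 0.0655 in proximal-like cells. Its ratio was 30.6-fold (log2 4.94, interval 4.68 to 5.21), from 24.4-fold in B + A 0 to 56.0-fold in B + A 10.

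The exporter subunits and the receptor gene were also higher in ileal-like cells, by a smaller ratio. Slc51a stood at 13.2, 11.98 and 12.3 UMIs per 10000 in ileal-like cells and at 3.58, 3.70 and 3.32 in proximal-like cells, a ratio of 3.58-fold (log2 1.84, interval 1.78 to 1.90). Slc51b stood at 11.96, 12.9 and 11.4 in ileal-like cells and at 3.15, 3.30 and 2.81 in proximal-like cells, a ratio of 3.92-fold (log2 1.97, interval 1.91 to 2.04). The values of the libraries lay close together within each class for both subunits. Nr1h4 stood at 1.20, 1.10 and 0.957 in ileal-like cells and at 0.307, 0.327 and 0.295 in proximal-like cells, a ratio of 3.60-fold (log2 1.85, interval 1.64 to 2.06). In all, 5 of the 5 members with at least 100 UMIs were 2-fold or more higher in ileal-like cells in each of the 3 libraries. Among all 7138 genes with that many UMIs the share was 2.07%, and 3.96% were 2-fold or more lower. The median log2 ratio was 1.97 over the 5 members and -0.16 over all genes tested.

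Fgf15 and Nr0b2, the hormone and repressor genes downstream of FXR, were close to the limit of detection. Fgf15 had 87 UMIs in the whole table, 44 of them in ileal-like cells: 24 from AOS 0, 14 from B + A 0 and 6 from B + A 10. These counts correspond to 0.0929, 0.0848 and 0.0438 UMIs per 10000, and the ileal-like to proximal-like ratio was 4.87-fold (interval of log2, 1.39 to 3.27), from 44 against 14 UMIs. No Fgf15 UMI was seen in the 338 duodenal-like cells, where a count of 0 allows up to 0.0211 UMIs per 10000. Nr0b2 had 139 UMIs in the table and a different order of classes. Its level was 0.228, 0.206 and 0.202 UMIs per 10000 in duodenal-like cells of AOS 0, B + A 0 then B + A 10, from 10, 9 and 11 UMIs, and 0.0542, 0.0484 and 0.0292 in ileal-like cells. Duodenal-like cells were above ileal-like cells in all 3 libraries, and the ratio of ileal-like to duodenal-like cells was -2.19 on the log2 scale (interval -3.003 to -1.38). Ileal-like and proximal-like cells were not separated for Nr0b2, with a log2 ratio of 0.16 (interval -0.62 to 0.93).

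**Figure D1:**
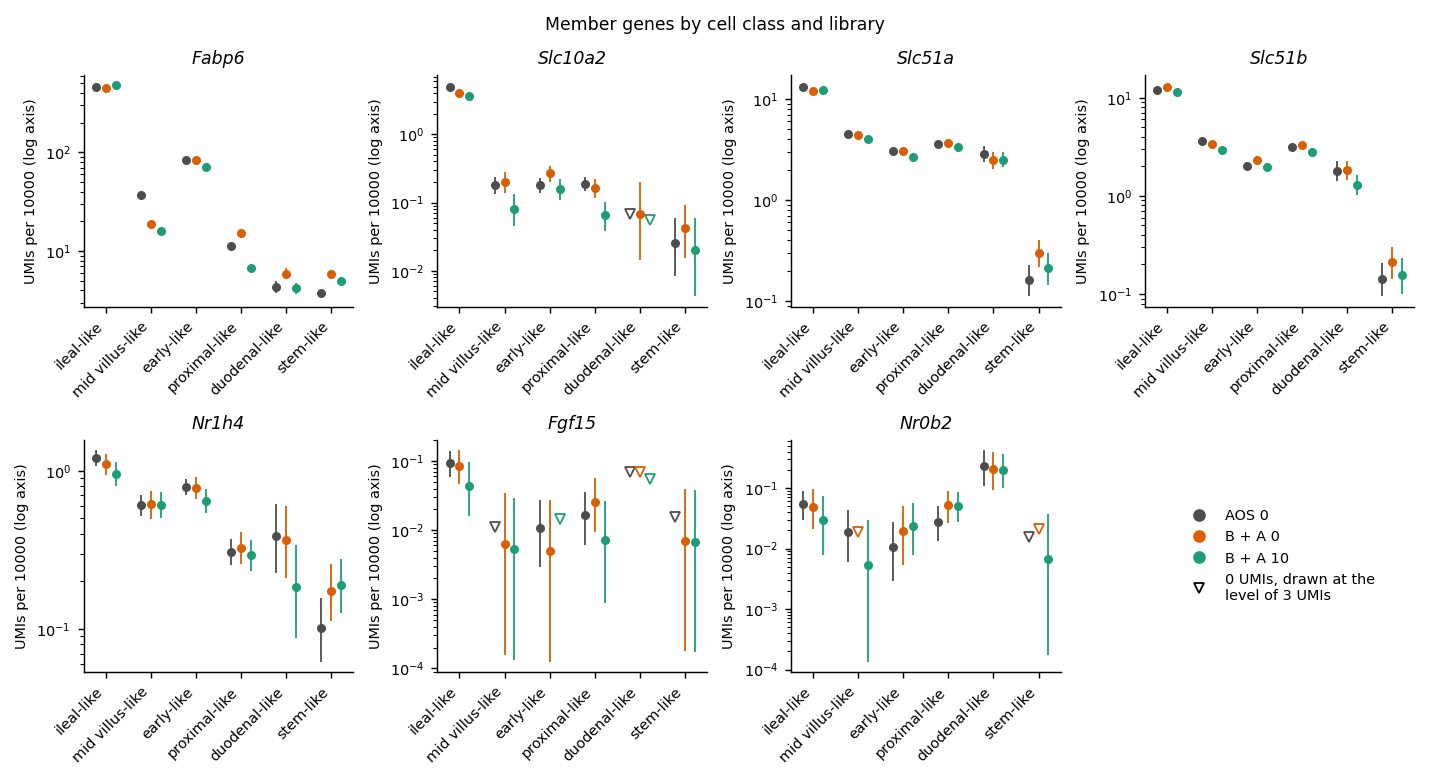
Level of each member gene (UMIs per 10000, log axis) in 5 enterocyte-like classes and stem-like cells. Points are libraries, bars are exact Poisson 95% intervals and open triangles mark a count of 0 drawn at the level of 3 UMIs. By counted level, the ileal-like class is highest for Fabp6, Slc10a2, Slc51a, Slc51b, Nr1h4 and Fgf15, and the duodenal-like class for Nr0b2. For Fgf15 in B + A 10, the duodenal-like triangle lies above the ileal-like point, so those 2 classes are not separated there.

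Early-like cells, named from Gsdmc2, Krt19 and other listed markers of young enterocytes, held the second highest Fabp6 level among the enterocyte classes. Fabp6 stood there at 83.4, 84.3 and 71.1 UMIs per 10000 in AOS 0, B + A 0 then B + A 10, so ileal-like cells were 5.74-fold higher. For Slc10a2 the same comparison gave 22.3-fold, with early-like levels of 0.179, 0.268 and 0.158. Slc51a and Slc51b were 4.31-fold and 5.80-fold higher in ileal-like than in early-like cells. Nr1h4 differed least between these classes: early-like cells stood at 0.795, 0.783 and 0.647, and ileal-like cells were 1.48-fold higher (log2 0.56, interval 0.40 to 0.73). Against stem-like cells, early-like cells were higher by 16.96-fold for Fabp6, 13.5-fold for Slc51a, 12.5-fold for Slc51b and 5.02-fold for Nr1h4. Mid villus-like cells held 37.2, 18.8 and 15.8 Fabp6 UMIs per 10000, with AOS 0 well above the other libraries, while Slc51a there was 4.48, 4.39 and 3.99.

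Levels in stem-like cells, which are not known to absorb bile acids, served as the background, since droplets also hold free RNA. Fabp6 was found there at 3.73, 5.89 and 4.97 UMIs per 10000 in the 3 libraries, and 34.4% of the 885 stem-like cells had a Fabp6 UMI after each cell was thinned to 1000 UMIs (83.6% unthinned, median 4979 UMIs per cell). Ileal-like cells reached 93.1% after thinning (98.6% unthinned, median 5164). Duodenal-like cells had a Fabp6 level of 4.76 UMIs per 10000 with libraries together, against 4.74 in stem-like cells, and are read as background. Fabp6 was above the stem-like level in T cell-like clusters, at 16.8, 38.4 and 48.8 UMIs per 10000, and in goblet-like clusters, at 27.1, 21.0 and 20.3, and 1 cluster carried each value. Goblet-like cells held 65.3 in a cluster where 54.4% of cells had a high doublet score, against 9.18 and 6.40 in the other two. T cell-like cells held 40.4 in 1 cluster and 5.52 in the other, with 5.13% and 4.69% of high doublet scores. With all cells of high doublet score left out and libraries together, Fabp6 stood at 18.0 in goblet-like and 28.8 in T cell-like cells. The stem-like level was then 4.43. The part of doublets in these levels was not tested further. Proximal-like cells were at 38.4% after thinning, near the stem-like share, although their summed level was 2.30-fold that of stem-like cells. For Slc10a2, 31.9% of ileal-like cells and 0.641% of proximal-like cells had a UMI after thinning (69.1% and 3.35% unthinned, median 3976 UMIs per proximal-like cell), and 0 of 885 stem-like cells did, which allows up to 0.416% (exact binomial). Unthinned, 1.47% of stem-like cells had a Slc10a2 UMI.

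The exporter subunits stood far above that background in proximal-like and duodenal-like cells too. Slc51a was found in 28.5% of proximal-like and 21.6% of duodenal-like cells after thinning, against 2.71% of stem-like cells (69.9%, 58.6% and 10.1% unthinned). Slc51b was found in 26.2%, 12.1% and 1.13% of the same classes after thinning (63.7%, 42.3% and 8.47% unthinned). The proximal-like level was 16.2-fold that of stem-like cells for Slc51a and 18.5-fold for Slc51b. The proportions between members also differed by class. Fabp6 gave 36.5 UMIs per Slc51a UMI in ileal-like cells, 27.4 in early-like cells, 3.09 in proximal-like cells and 1.82 in duodenal-like cells, and 21.8 in stem-like cells. The number of Slc51a UMIs per Slc51b UMI stayed between 1.05 in ileal-like and 1.61 in duodenal-like cells across the 5 enterocyte classes. Such proportions set one gene's count against another's and do not rank the genes by amount.

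Within the proximal-like class, 1 small cluster of 87 cells carried much of the Fabp6 signal. It held 60.0 Fabp6 and 0.81 Slc10a2 UMIs per 10000, against 5.45 and 10.2 Fabp6 UMIs per 10000 in the larger proximal-like clusters. Its leading genes included Wfdc18, Sst and the proximal markers Apoa4 and Leap2. In this cluster 78.2% of cells were among the highest 5% of doublet scores of their library, against 0.874% and 0.658% in the larger ones, so its values cannot be read as those of single proximal cells. With all cells of high doublet score left out, the proximal-like level was 7.01 UMIs per 10000 for Fabp6 and 0.104 for Slc10a2. With only the cluster of 87 cells left out, the ileal-like to proximal-like ratio rose to 61.6-fold for Fabp6 and 45.5-fold for Slc10a2. It was 3.56-fold for Slc51a, 3.88-fold for Slc51b and 3.60-fold for Nr1h4.

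Within the enterocyte-like clusters, ordering single cells by their markers gave a graded pattern. Of the 5537 cells of the 5 enterocyte classes, 5385 had at least 10 UMIs of the ileal and proximal marker lists together, and they were put in 5 equal ranges of the ileal share of those UMIs. From the lowest to the highest range, with 3747, 587, 497, 455 and 99 cells, Fabp6 stood at 9.41, 93.2, 291, 444 and 454 UMIs per 10000. The last 2 pooled values were close, while within AOS 0 they were 392 and 433 and within B + A 10 they were 521 and 647. Slc10a2 stood at 0.0738, 0.787, 2.26, 3.41 and 5.35 and was still higher in the fifth range than in the fourth. Slc51a stood at 3.21, 5.62, 8.20, 10.8 and 12.4, and Slc51b at 2.43, 5.15, 7.72, 10.0 and 11.8. Nr1h4 stood at 0.393, 0.637, 1.01, 1.31 and 1.61. The fifth range held 70 cells of AOS 0 and 22 of B + A 10, so its pooled value rests mostly on AOS 0, and B + A 0 had fewer than 20 cells there.

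**Figure D2:**
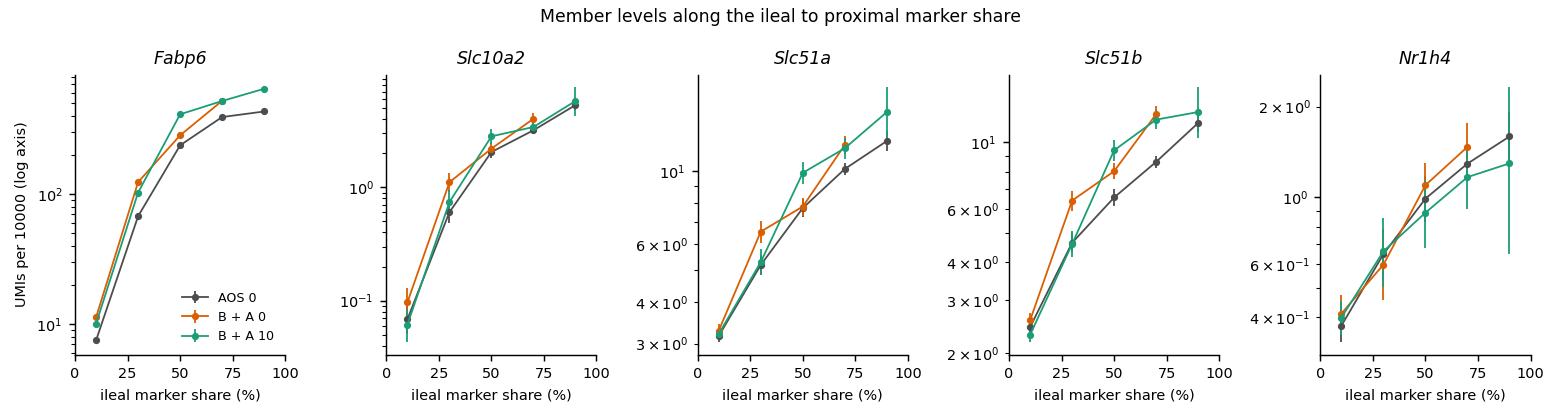
Level of 5 members (UMIs per 10000, log axis) against the ileal share of marker UMIs per cell (%, 5 ranges drawn at their middle), by library, with exact Poisson 95% intervals. All 5 genes are higher at higher ileal share in each library, and B + A 0 has no point in the last range.

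At a finer resolution 4 clusters were named ileal-like, and Fabp6, Slc51a and Slc51b put them in the same order. They held 1790 cells, of which 915 came from the ileal-like class above and the others mostly from the proximal-like, mid villus-like and early-like classes. The cluster of 464 cells led by Tmigd1 and Saa1, all of them from the ileal-like class above, held 596 Fabp6, 7.10 Slc10a2, 14.9 Slc51a and 14.8 Slc51b UMIs per 10000. The cluster of 414 cells led by Mgat4c and Ddah1 held 357 Fabp6 UMIs per 10000 but 1.43 for Slc10a2. Its Nr1h4 level of 1.33 was close to the 1.26 of the Tmigd1 cluster, and no interval was taken for these levels. An early-like cluster of 204 cells led by Gsdmc2, with Mgat4c among its leading genes, had 138 Fabp6 UMIs per 10000, a Slc10a2 level of 0.19 and an Nr1h4 level of 1.08. In the other early-like cluster, of 739 cells, Fabp6 was 13.1 and Nr1h4 0.52. The remaining 2 clusters named ileal-like, of 490 and 422 cells, held 79.2 and 56.5 Fabp6 UMIs per 10000, and the cluster of 422 cells also had the proximal marker Slc5a12 among its leading genes. Across the Gsdmc2, Mgat4c and Tmigd1 clusters, Fabp6 therefore went from 138 to 357 to 596 and Slc10a2 from 0.19 to 1.43 to 7.10. Nr1h4 differed less between them, at 1.08, 1.33 and 1.26. These clusters were formed from other genes and their order was not measured in time.

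**Figure D3:**
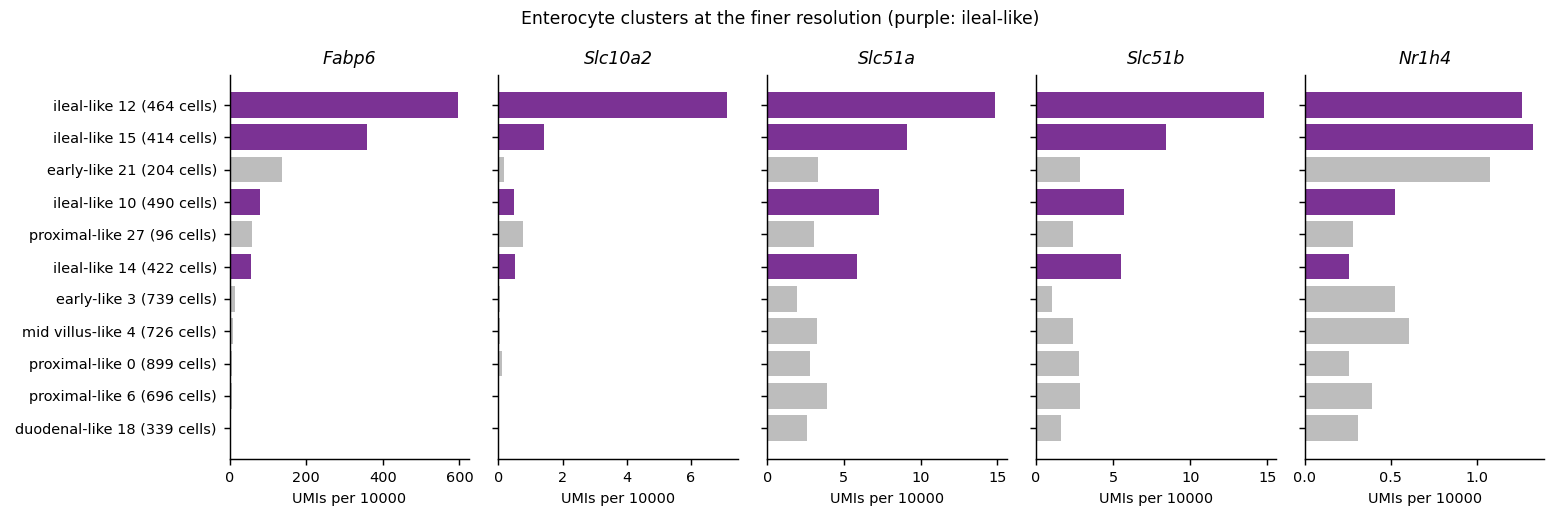
Level of 5 members (UMIs per 10000, bars from 0) in the 11 enterocyte-like clusters found at the finer resolution, libraries together, sorted by Fabp6. Purple bars are clusters named ileal-like. Slc10a2 is concentrated in 1 cluster, and Nr1h4 is also high in an early-like cluster.

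Single ileal-like cells spread widely in Fabp6. In AOS 0 the 10th percentile over cells was 40.6 UMIs per 10000, the median 448 and the 90th percentile 839.9. In B + A 0 the same points were 11.3, 414 and 832, and in B + A 10 they were 7.08, 428 and 965. The median differed little between libraries while the lower end differed more. Slc51a spread less, with a median of 12.2, 11.3 and 11.001 and 10th percentiles of 6.15, 4.60 and 3.42 in the same order. These per-cell values were not thinned, and the median UMIs per ileal-like cell were 7331, 6235 and 3266. The part of depth in the lower percentiles was not tested. After thinning, 97.9% of the 292 ileal-like cells with a Slc10a2 UMI also had a Fabp6 UMI, against 90.9% of the 624 without. The Fabp6 level was 544 UMIs per 10000 in the former and 423 in the latter.

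Between the libraries, ratios in ileal-like cells were read for calls past 1.5-fold. Of the 5 members with at least 100 UMIs, 0 were 1.5-fold or more higher and 0 were 1.5-fold or more lower in each of the 3 comparisons. From AOS 0 to B + A 0, 1.95% of 4057 genes were that much higher and 3.33% lower. From B + A 0 to B + A 10 the shares of 3277 genes were 3.51% and 1.07%, and from AOS 0 to B + A 10 the shares of 3980 genes were 5.8% and 4.12%. With background shares this low, a count of 0 among 5 genes is no result about the members. There was 1 library per group and therefore no p-value.

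Of the 5 members with enough UMIs, Slc10a2 had the largest ratios to AOS 0. From AOS 0 to B + A 0 its log2 ratio was -0.33 (interval -0.46 to -0.19), from B + A 0 to B + A 10 it was -0.12 (interval -0.29 to 0.05), and from AOS 0 to B + A 10 it was -0.45 (interval -0.60 to -0.30). The AOS 0 library was thus the highest of the 3. When each cell was instead assigned to the ileal class by its own marker share, the ratios to AOS 0 were 0.08 for B + A 0 and 0.07 for B + A 10, so the direction depends on how ileal cells are defined. Fabp6 had log2 ratios of -0.03, 0.09 and 0.05 in the same comparisons, and 0.24, 0.23 and 0.47 by marker share. Slc51a had log2 ratios of -0.15, 0.04 and -0.10, and 0.07, 0.12 and 0.19 by marker share. Slc51b had log2 ratios of 0.11, -0.18 and -0.07, and 0.33, 0.06 and 0.40 by marker share. Nr1h4 had log2 ratios of -0.14, -0.20 and -0.33, with an interval of -0.64 to -0.03 for the last, and 0.03, -0.31 and -0.28 by marker share. Each of these 5 members had a ratio that changed sign between the definitions of ileal cells, so most of these small ratios are not settled in sign. Only 2 kept their sign in every alternative setting that gave ratios. Nr1h4 from AOS 0 to B + A 10 ranged from -0.44 to -0.17 on the log2 scale. Slc51b from AOS 0 to B + A 0 ranged from 0.03 to 0.33. Fgf15 fell from 24 UMIs in AOS 0 to 6 in B + A 10, and the log2 ratio of -1.08 had an interval of -2.66 to 0.24, so no difference was detectable at this depth. The same held for Nr0b2 (log2 ratio -0.89, interval -2.95 to 0.78).

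**Figure D4:**
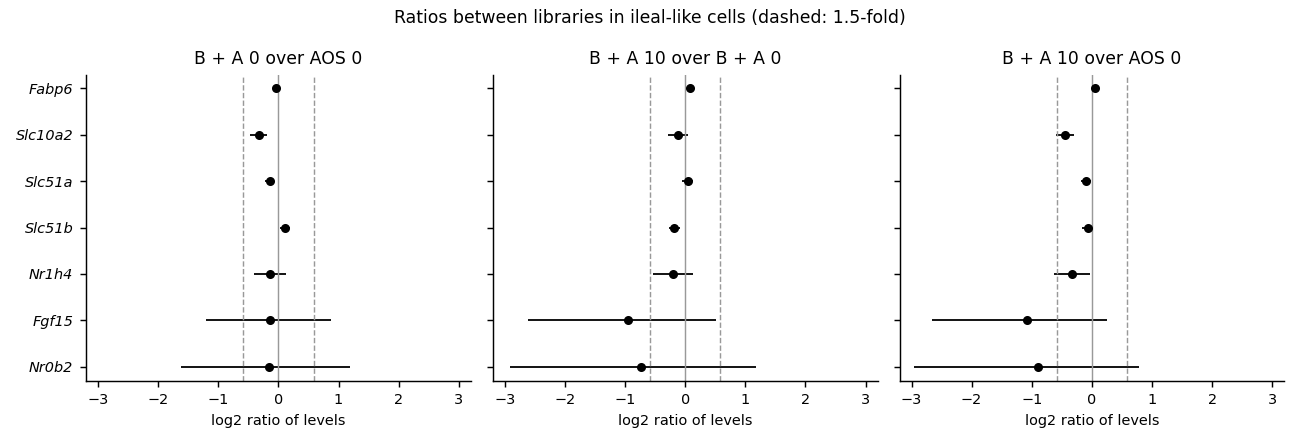
Log2 ratio of member levels between libraries in ileal-like cells, with exact binomial 95% intervals that cover counting error only. Dashed lines mark 1.5-fold. Fabp6, Slc10a2, Slc51a, Slc51b and Nr1h4 lie inside the dashed lines in all 3 comparisons, and the intervals of Fgf15 and Nr0b2 cross 0.

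Other genes differed between the ileal-like cells of the libraries too. The summed level of the 10 ileal markers was 40.4, 33.0 and 33.4 UMIs per 10000 in AOS 0, B + A 0 then B + A 10, and that of the 10 proximal markers was 34.9, 39.8 and 52.9. All 8 goblet markers were detected, with a summed level of 30.7, 85.5 and 98.2, and all 8 T cell markers, with 1.88, 6.27 and 8.16, while the stem marker list reached at most 1.17 with Lgr5 and Ascl2 at 0 in some libraries. The part of these differences in the member ratios was not tested. In proximal-like cells Fabp6 was 2.24-fold lower in B + A 10 than in B + A 0 (log2 ratio -1.16, interval -1.24 to -1.08), and Slc10a2, with 18 and 38 UMIs, had a log2 ratio of -1.32 (interval -2.22 to -0.48). Without the small cluster of 87 cells the proximal-like Fabp6 log2 ratio was -0.89 from B + A 0 to B + A 10, and from AOS 0 to B + A 10 it went from -0.74 to -0.01. The Fabp6 level of stem-like cells was 3.73, 5.89 and 4.97 in AOS 0, B + A 0 then B + A 10. Its log2 ratio was -0.25 from B + A 0 to B + A 10 and 0.41, the other way, from AOS 0 to B + A 10. The part of background in the proximal-like ratios was not tested.

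As a share of all cells of a library, the ileal-like class had intervals that overlapped between the libraries. The class held 7.67% of AOS 0 cells (315 of 4106, exact interval 6.88 to 8.53), 7.39% of B + A 0 cells (236 of 3195, 6.50 to 8.35) and 6.82% of B + A 10 cells (365 of 5352, 6.16 to 7.53). The differences were -0.29 percentage points from AOS 0 to B + A 0 (Newcombe interval -1.49 to 0.95), -0.57 from B + A 0 to B + A 10 (-1.72 to 0.54) and -0.85 from AOS 0 to B + A 10 (-1.92 to 0.20). Assigned by marker share instead, ileal cells were 9.81%, 5.92% and 4.50% of the libraries, so this result also depends on how ileal cells are defined. Among enterocyte-like cells alone, the class held 17.4% (exact interval 15.7 to 19.2), 18.6% (16.5 to 20.9) and 14.8% (13.5 to 16.3). On this base the intervals of B + A 0 and B + A 10 did not overlap, and B + A 0 was the highest. The cells of the ileal-like class carried 6.65% of all UMIs but 64.0% of Fabp6, 76.6% of Slc10a2, 39.1% of Slc51a, 44.7% of Slc51b, 22.01% of Nr1h4 and 18.7% of Nr0b2 UMIs. Early-like cells added 15.6% of Fabp6 and 20.8% of Nr1h4 UMIs.

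Among genes outside the 7, other genes of bile acid handling did not share the ileal pattern as a group. Of 20 listed genes, 8 had at least 100 UMIs in ileal-like and proximal-like cells, 1 was 2-fold or more higher in ileal-like cells in each library and 1 was lower, with a median log2 ratio of -0.14 against -0.16 over all genes. Abcb1a, an efflux pump, was the higher one at 2.80-fold (log2 1.48, interval 1.28 to 1.69). Cyp3a11, a cytochrome that oxidises bile acids and drugs, was the lower one at a log2 ratio of -2.98 (interval -3.30 to -2.67). Sult2b1, a sulfotransferase, stood at a log2 ratio of 0.19, and Abcc3, an exporter of conjugates, at -0.47. Of 21 nuclear receptors and regional factors, 19 had enough UMIs, 1 was called higher and 3 lower, with a median of 0.03. Nr5a2 (LRH-1), a known partner of SHP, was the higher one at 2.25-fold. Cdx1 was also at 2.25-fold with libraries together. It was not called because it stood at 1.95-fold in B + A 10, where Nr5a2 stood at 2.01-fold. Gata4, a factor of the upper intestine, stood at a log2 ratio of -1.66, Gata6 at -1.56 and Nr1i3 (CAR) at -2.42. The partner of FXR, Rxra, had a log2 ratio of 0.20, and Hnf4a 0.40. Of the 4 fatty acid binding proteins listed beside Fabp6, 2 had enough UMIs and both were lower in ileal-like cells: Fabp1 at a log2 ratio of -4.50 and Fabp2 at -1.53.

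The genes whose levels over the 20 clusters were most like each member's were other enterocyte genes. Likeness is Pearson's r of log2 levels, given as a description because clusters share libraries and depth. Slc10a2 was most like Tmigd1 (r = 0.94), Mep1a (0.92) and Tmem117 (0.89), and Fabp6 was most like Tmem117, Mep1a and Mgat4c (all 0.89). Slc51a was most like Tgfbi, Slc7a9 and Enpep (all 0.98), and Slc51b like Kbtbd11 (0.98), Tgfbi and Cyp4f14 (both 0.96). Nr1h4 was most like Abat (0.96), Bcl2l15 and Edn2 (both 0.94). For Fgf15, with 87 UMIs, the leading gene was Tmigd1 (0.95), and for Nr0b2, with 139 UMIs, it was Meis2 (0.90), followed by the duodenal markers Otop3 and S100g (both 0.89). Among the members the highest r were those of Slc51a with Slc51b (0.97) and of Fabp6 with Slc10a2 (0.93), while Fabp6 with Nr0b2 gave 0.01.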

How the data were processed

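The 7 members, the gene lists and the alternatives were chosen with earlier results of these data known. The authors pooled cells of 6 mice per group and made 10x 3′ libraries with Cell Ranger 2.2.0, per the labels and the methods, with mm10 as genome. The table the authors deposited holds natural log values of UMIs scaled to 10000 per cell plus 1, for cells with at least 200 genes and genes in at least 3 cells. From these values whole UMIs were recovered: of 24333763 values above 0, 100% were whole within 0.01 UMI. UMI totals per library were 35258551, 26044381 and 23003083, for AOS 0, B + A 0 then B + A 10.

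Clusters were found with Seurat 5.3.0 (R 4.3.3) without the 7 members: 2000 variable genes, libraries joined by canonical correlation, 20 dimensions and resolution 0.8. A cluster took the name of the marker list with the highest mean standardized score. A list with more of the 10 leading genes than the named one, or fewer than 3 detected markers, left it unnamed. Doublets were kept, and an alternative left out the highest 5% of Scrublet scores (scanpy 1.11.5) per library. Ratios are of summed UMIs scaled to class totals, for genes with at least 100 UMIs in the cells compared, called past 1.5-fold between libraries or 2-fold between regions in each library. Intervals are exact at 95%, and the ratio code was tested on simulated data. The genes named are the members, genes of the 3 lists with at least 100 UMIs, and for each member the 3 genes most like it over clusters among those with at least 300 UMIs, on log2 of UMIs per 10000 plus 0.1. Alternatives were other clusterings and resolutions, doublets or cells under 500 genes left out, cells assigned by marker share (at 0.5), mean values per cell, another scaling, thinning to 1000 UMIs and a floor of 300 UMIs. Gene coordinates were read from GENCODE on GRCm38, which is the mm10 assembly.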

Additional observations from a re-analysis of the deposited data

How the results depend on the processing

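Of 10 alternatives planned and 2 added after the data were seen, none changed the count of 5 members past 2-fold between ileal-like and proximal-like cells. The count past 1.5-fold from AOS 0 to B + A 10 became 1 at resolution 1.5, where the Slc10a2 log2 ratio was -0.60, and the other counts between libraries stayed at 0. Of 210 member log2 ratios in ileal-like cells, 170 stayed inside the counting interval of the value reported and 40 moved outside it. All 40 belonged to the 5 members with enough UMIs. The intervals of Fgf15 and Nr0b2 are so wide that staying inside them says little about stability. Leaving out cells under 500 genes changed no ratio, so its values could not move. Of all 210, 26 values, in 16 of the 21 ratios, had the opposite sign to the one reported. The share of ileal-like cells moved most. For AOS 0, B + A 0 then B + A 10 it was 10.4%, 8.61% and 7.81% without joining, 5.65%, 5.35% and 4.82% at resolution 0.4, 14.4%, 14.1% and 14.0% at resolution 1.5, 9.81%, 5.92% and 4.50% by marker share, and 4.07%, 3.76% and 3.31% for the Tmigd1 cluster alone. In these 5 settings the order of the libraries was kept, and the cause of the shifts was not tested. No paired analysis was possible because each group has 1 library. Depth limits Fgf15 and Nr0b2, whose ileal-like counts were 6 and 4 UMIs in B + A 10.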
